A study of Mus musculus with 13 samples.

Results

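Adamts6 (ENSMUSG00000046169.10) is a 209-kb gene of 25 exons on the + strand of mouse chromosome 13, at chr13:104287835-104496695 in the mm10 build. All estrogen receptor-alpha (ESR1) ChIP-seq peaks with a summit in the gene body or within 100 kb on either side were taken from the 12 deposited peak lists, and peaks that overlapped by at least 1 bp in any libraries were merged into sites. This gave 653 peaks of 686823 and 157 merged sites of 228284. The gene was chosen by its number of peaks in these lists, so that number and its density are descriptions without a test. The study also placed Adamts6 among genes raised by E2 over E2 plus fulvestrant in RNA-seq, ChIP-seq and ATAC-seq together. It further reported the protein in E2-treated fibroblasts and the RNA in some human hernia samples. The ChIP-seq part of that is not independent evidence about these libraries.

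ESR1 is a nuclear receptor that binds DNA after estradiol (E2) enters the cell, either directly at estrogen response elements (EREs), which are inverted repeats of GGTCA, or through other bound factors. Fulvestrant is an antagonist that blocks the receptor and marks it for degradation. ADAMTS6 is a secreted metalloprotease of the extracellular matrix, closely related to ADAMTS10, and both act on the fibrillin microfibrils that also hold latent TGF-β. Fibroblasts make that matrix, and its excess is fibrosis.

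The cells were primary fibroblasts from the lower abdominal muscle of Aromhum mice, which carry the human aromatase gene and so make E2 in tissues including muscle. Every group had this genotype, and no wild-type cells entered the comparison. Vehicle cells received ethanol and DMSO, and E2 cells received 10 nM E2 for 1 hr. Fulvestrant (F) cells received 100 nM fulvestrant, and E2 plus F cells received both, with 3 libraries per group. Per the study's methods, fulvestrant or DMSO was given 3 hr before E2 or ethanol, so cells were exposed to fulvestrant for longer than to E2. The labels do not say whether replicates came from separate animals, so p-values measure the spread between these libraries, which may be technical. Peak lists hold no expression values, so the labelled cell type could not be checked against marker genes.

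The lists held 34293 to 104571 peaks and no read totals. E2 replicate 1 and F replicate 2 stood apart. They had the longest lists, 104571 and 80754 peaks, with 59.4% and 27.9% of summits mostly in repeat-masked sequence, against 5.57% to 7.79% in the other 10 libraries. Depth was read from the lowest local background over the shortest peak length of a list, as a percentage of the median of the 12 libraries. It was 39.1% and 75.8% in these 2 libraries, against 92.0% to 106% in the rest. The main comparisons are given with and without them.

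Sequences around 5 summits are shown first because they belong to the start site and to downstream sites found in all 12 libraries, and because that at 254 kb is the 1 summit found in at least 5 of the 6 E2-treated libraries and in no other. The 274-kb site, which ranked just after the start site, is not printed because its strongest summit lay in fully repeat-masked sequence. Each is 121 bases of the + strand of GRCm38 (mm10) from the RefSeq genome, with a single ERE arm (GGTCA or TGACC) or an AP-1 match (TGANTCA) in capitals. An ERE arm occurred in 19.1% and an AP-1 match in 3.55% of such windows at all 228284 regions.
Start site, chr13:104288124-104288244: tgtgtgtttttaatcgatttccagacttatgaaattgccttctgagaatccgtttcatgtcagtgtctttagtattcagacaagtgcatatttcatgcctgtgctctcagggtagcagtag
212-kb site, chr13:104499663-104499783: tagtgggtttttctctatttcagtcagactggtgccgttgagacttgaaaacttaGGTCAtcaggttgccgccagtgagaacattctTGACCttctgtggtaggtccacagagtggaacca
230-kb site, chr13:104518007-104518127: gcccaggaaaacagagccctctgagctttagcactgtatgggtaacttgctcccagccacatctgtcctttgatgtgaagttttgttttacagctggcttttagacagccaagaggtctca
254-kb site, chr13:104540923-104541043: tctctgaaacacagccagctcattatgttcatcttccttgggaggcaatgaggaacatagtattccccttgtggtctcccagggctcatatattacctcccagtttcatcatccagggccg
285-kb site, chr13:104572395-104572515: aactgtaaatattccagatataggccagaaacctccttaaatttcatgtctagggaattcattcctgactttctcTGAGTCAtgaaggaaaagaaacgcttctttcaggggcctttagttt
The summit in Adamts6 intron 1, at the start site, held neither motif, although it was the strongest of the locus. The 212-kb summit, just past the end of the gene, held an ERE arm on each strand, too far apart to form an element. The 285-kb summit held an AP-1 match, and the summits at 230 and 254 kb held none of these letters.

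Near-complete EREs within merged sites are shown because they are the direct recognition sequence of the receptor. Matches to GGTCANNNTGACC with up to 1 mismatch were taken on either strand, and the 13-base element is in capitals in 61 bases. The window held 7 of them, none exact, and 4 lay inside a site.
Intron 9, 73.1 kb from the start, chr13:104360901-104360961: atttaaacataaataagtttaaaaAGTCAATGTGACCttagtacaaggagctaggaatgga
Intron 18, 149.8 kb, chr13:104437561-104437621: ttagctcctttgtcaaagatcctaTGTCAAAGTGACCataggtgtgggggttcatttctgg
Intron 21, 180.8 kb, chr13:104468573-104468633: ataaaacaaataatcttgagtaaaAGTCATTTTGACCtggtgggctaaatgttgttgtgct
Downstream flank, 228.5 kb, chr13:104516354-104516414: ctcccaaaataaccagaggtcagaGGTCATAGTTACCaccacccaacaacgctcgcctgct
Counted from 1 at the first base of the element, the changes from GGTCANNNTGACC were G1A at 73.1 kb, G1T at 149.8 kb, G1A at 180.8 kb and G10T at 228.5 kb. The element at 228.5 kb lay under peaks of 10 of the 12 libraries, but only 2 libraries had a summit within 100 bp of it. The other 3 elements lay under peaks of 2 or 3 libraries, all of them given E2. These were E2 replicate 2 and E2 plus F replicate 2 at 73.1 kb, E2 replicate 3 with E2 plus F replicates 2 and 3 at 149.8 kb, and E2 replicate 3 with E2 plus F replicate 3 at 180.8 kb. The best of these peaks had rank percentiles (0 strongest, 100 no peak) of 67.0, 65.5 and 29.6 in that order. The merged sites around 2 of these elements also had peaks without E2, beside the element. At 149.8 kb these were in vehicle replicates 1 and 2 (percentiles 45.9 and 65.1). At 180.8 kb they were in vehicle replicates 1 and 3 (94.0 and 30.8) and F replicate 3 (73.8). The elements at 73.1 and 149.8 kb lay in repeat-masked sequence. The pattern of elements covered only in libraries given E2 was picked after the values were seen. No presence test separated any site of the window. The share of the genome's elements with such a pattern was not computed. EREs were sparser here than in the genome, 17.1 against 27.9 per Mb. Of the 7, 57.1% lay in a site, against 8.503% of such elements in the genome, while sites covered 33.1% of the window and merged regions 5.34% of the genome.

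Motifs at the strongest summits were about as frequent as elsewhere. Within 100 bp of the summit on either side, an ERE with up to 1 mismatch was present at 2 of 157 sites (1.27%, against 1.36% of all regions). AP-1 matches were present at 12 sites (7.64%, against 5.96%). The glucocorticoid element GNACANNNTGTNC was present at 0 sites, against 0.379% of all regions.

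Sites lay through the whole gene and beyond its end, but few lay before its start. The gene body held 108 sites (51.7 per 100 kb) and 334 peaks. The downstream 100 kb held 38 sites but 285 peaks, so its sites recurred in more libraries. The upstream 100 kb held 11 sites and 34 peaks. The longest gap between neighbouring summits, 49309 bp, lay there, between the shared promoter of Ppwd1 and Cenpk, 59 kb upstream, and the approach to Adamts6. The median gap was 1504 bp in the gene body and 2055 bp downstream, against 4047 bp over all regions.

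By annotation, 105 sites were intronic, 42 intergenic, 6 within 3 kb of a transcription start and 4 exonic. Of the introns of Adamts6, intron 7 (33.0 kb) held the most sites, 17, followed by intron 20 (17.3 kb) with 12 and introns 9 and 11 with 10 each. Introns 2, 5 and 19 held none.

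**Figure D1:**
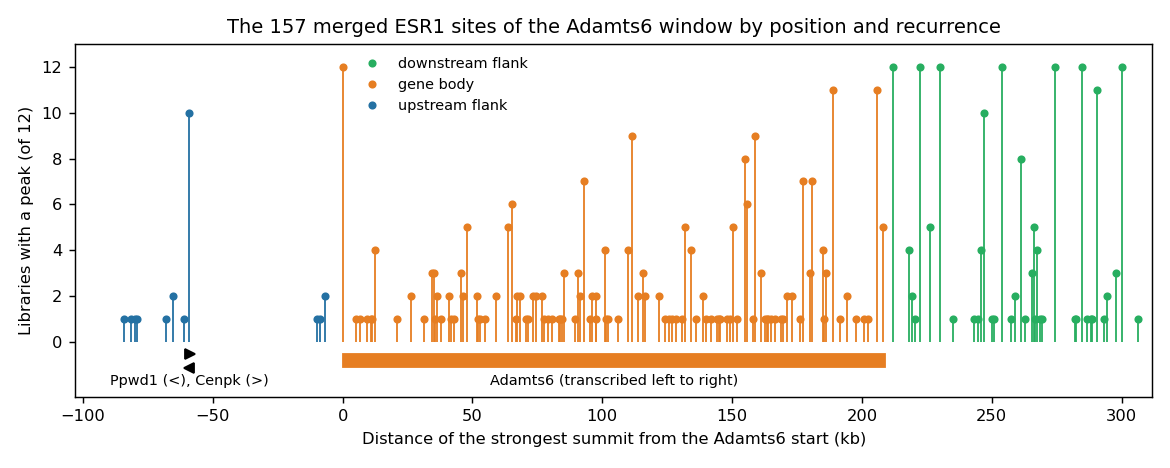
Each of the 157 sites is drawn at the distance of its strongest summit from the Adamts6 start in kb (horizontal axis), with the number of libraries that held a peak there, of 12 (vertical axis). Short stems fill the gene body, the start site reaches 12 libraries, and 7 more sites with 12 lie in the 100 kb past the gene end.

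The window stood near the top of all genes for its number of peaks. Its 653 peaks ranked 20 of 21911 protein-coding gene windows (median 89) and 7 of the 2135 genes of 100 to 400 kb (median 104), and these ranks only describe the choice of the gene. Per 100 kb it held 160 peaks, against a median of 36.2. The edges of the window cut through no strong site. The last summits inside were single-library peaks, 15.6 kb (fold enrichment 3.39) and 2.63 kb (fold 2.32) from the left and right edges, and the nearest outside were a 12-library site 8.79 kb to the left (fold 5.52) and a peak of E2 replicate 1 alone 0.317 kb to the right (fold 4.75).

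A few broad, strong sites and many narrow, weak ones made up the locus. Of the 157 sites, 83 (52.9%) had a peak in a single library, against 64.2% of all regions, and 8 (5.10%) had one in all 12, against 3.42%. The single-library sites had a median summit height of 14 fragments (6 to 36), a median fold enrichment of 2.81 (2.02 to 4.43) and a median width of 324 bp. The 8 sites of all 12 libraries reached a median of 78.5 fragments (27 to 107), a fold of 7.07 (5.28 to 27.4) and a width of 5195 bp (3309 to 7163). Heights are the peak caller's pileup at the summit, solved from its fold and p-value. Height and fold are those of the best-ranked peak of a site in any library, and the width is that of the merged site. A site of all 12 libraries thus had more peaks to choose from and to merge, so the 2 sets are not compared on like terms. The fold of 27.4 was that of E2 replicate 1 at 274 kb, in sequence 100% repeat-masked.

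Several of these sites were also broad. Of the window's sites, 8 were 4 kb or wider, and 6 of those were in all 12 libraries, whereas 0.600% of all regions were that wide. Such a site is a merger of neighbouring peaks. Linking summits within 250 bp instead gave 266 clusters, of which 142 were in a single library, 27 in at least 6, and 2 in all 12, the latter at the start and at 230 kb. Sequence masked as repeats covered most of the summit window at 50 of the 157 sites (31.8%). The share over all regions was not computed. Such peaks numbered 20 of 74, 6 of 49 and 3 of 57 in vehicle, and 14 of 22, 14 of 67 and 10 of 69 in E2. They numbered 4 of 36, 8 of 41 and 18 of 88 in E2 plus F, and 8 of 45, 15 of 41 and 12 of 64 in F. In whole lists the share was 5.57% to 7.79%, apart from E2 replicate 1 and F replicate 2. The part of repeats in the number of peaks was not tested.

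The weak sites were not spread evenly over libraries. Peaks that no other library shared numbered 10, 5 and 6 in vehicle replicates 1 to 3, 5, 11 and 12 in E2, 0, 2 and 15 in E2 plus F, and 4, 3 and 10 in F. The third replicate held the most within E2, E2 plus F and F, and the first did so within vehicle.

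The 8 sites of all 12 libraries form a start site and a downstream series. They lie at the start (chr13:104285086-104292248) and, measured from the start to the strongest summit, at 212 kb (chr13:104496706-104500839), 222 kb (chr13:104508825-104512248), 230 kb (chr13:104515124-104522082), 254 kb (chr13:104539102-104544533), 274 kb (chr13:104557876-104564282), 285 kb (chr13:104570839-104574147) and 300.1 kb (chr13:104586150-104591107). The series starts just past the annotated end of Adamts6, in sequence the annotation leaves intergenic, and no other gene starts in the downstream flank. A further 3 sites were in 11 libraries, exonic sites at 189 and 206 kb in the last part of the gene and an intergenic one at 291 kb. Sites in at least 6 libraries were 9.51 kb apart in the downstream flank (median) and 17.7 kb apart in the gene body.

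Peak counts in the window overlapped between all treatments. Vehicle libraries held 74, 49 and 57 peaks, E2 libraries 22, 67 and 69, E2 plus F libraries 36, 41 and 88, and F libraries 45, 41 and 64. The lowest count was that of E2 replicate 1 and the highest that of E2 plus F replicate 3. Means were 60 ± 12.8 (SD, n = 3) for vehicle, 52.7 ± 26.6 for E2, 55.0 ± 28.7 for E2 plus F and 50 ± 12.3 for F.

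No difference in counts passed the test. By two-sided exact permutation of the libraries, for which 3 against 3 cannot go below p = 0.1, the p was 0.8 for E2 against vehicle, 1 for E2 against E2 plus F, 0.8 for E2 plus F against vehicle and 0.4 for F against vehicle. The 6 libraries given E2 held 53.8 ± 24.8 peaks and the 6 not given E2 held 55.0 ± 12.5 (exact permutation p = 0.929). A raw p below 0.05 was reached by 4.55% of gene windows in that comparison. In E2 against vehicle, 23.2% of gene windows had all E2 counts above all vehicle counts, and Adamts6 was not among them. Without E2 replicate 1 the E2 mean was 8 peaks above vehicle instead of below it (exact permutation p = 0.5).

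Most of the spread in counts came from the gene body. It held 40, 18 and 30 peaks in vehicle, 5, 40 and 43 in E2, 13, 18 and 63 in E2 plus F, and 18, 12 and 34 in F. The downstream flank held 20 to 31 peaks in 11 libraries and 12 in E2 replicate 1. Counts in the gene body thus varied more between replicates of the same treatment than those downstream. Per 10000 peaks of the list, the downstream flank held 6.05, 8.46 and 5.78 in vehicle, 1.15, 3.94 and 3.48 in E2, 5.37, 3.93 and 3.47 in E2 plus F, and 6.11, 2.85 and 6.12 in F. On that scale all E2 and all E2 plus F libraries lay below all vehicle libraries, and F overlapped them. How many other genes have flanks of which this holds was not computed. For the share of whole windows it held at 15.1% of genes for E2 and 7.13% for E2 plus F. List length enters this scale, and its part was not tested.

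**Figure D2:**
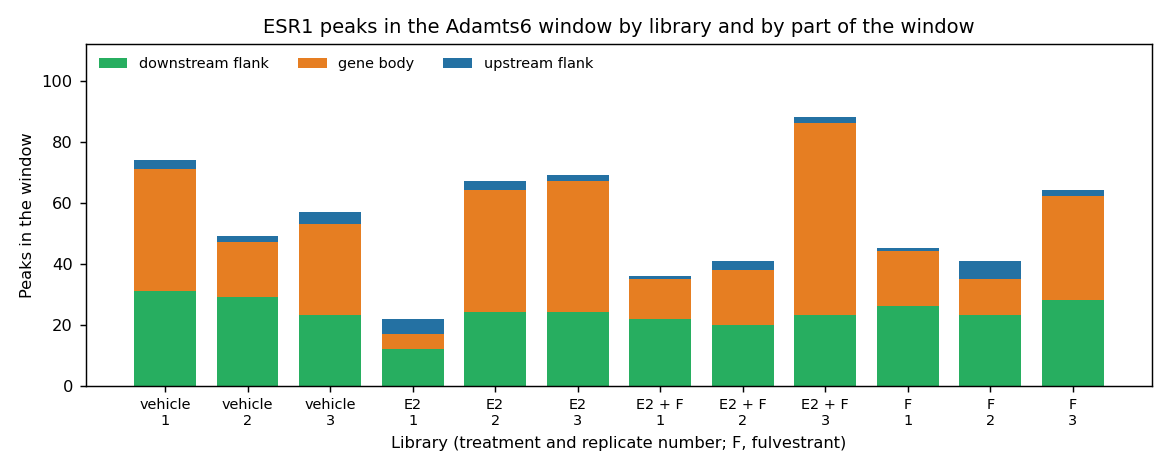
Stacked bars give the number of ESR1 peaks in the window for each of the 12 libraries (vertical axis), split into downstream flank, gene body and upstream flank. The downstream segment stays between 20 and 31 in all but E2 replicate 1, which has 12, and the gene-body segment runs from 5 to 63.

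As a share of the library's peak list, the window was highest and tightest in vehicle. Per 10000 peaks, vehicle libraries gave 14.4, 14.3 and 14.3, E2 libraries 2.10, 11.0 and 10.0, E2 plus F libraries 8.79, 8.06 and 13.3, and F libraries 10.6, 5.08 and 14.0. All 9 treated libraries lay below all 3 vehicle libraries. The vehicle shares rest on 74, 49 and 57 peaks, and each count carries counting error. Their closeness was not tested, and how many genes are as tight in vehicle was not computed. The 3 comparisons with vehicle share those libraries and are not independent of each other.

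The differences in share from vehicle reached the smallest p of this design and did not pass adjustment. Means were 14.4 ± 0.0787 (SD, n = 3) in vehicle, 7.70 ± 4.87 in E2, 10.0 ± 2.83 in E2 plus F and 9.88 ± 4.50 in F. Each comparison with vehicle gave the smallest exact permutation p of 0.1 (adjusted over all genes 0.517, 0.841 and 1). All treated libraries fell below all vehicle libraries at 15.1% of genes for E2, 7.13% for E2 plus F and 3.87% for F. E2 and E2 plus F overlapped (exact permutation p = 0.6). Without E2 replicate 1 the E2 difference from vehicle went from -6.65 to -3.85, and without F replicate 2 the F difference went from -4.47 to -2.07, with every treated library still below every vehicle library.

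The libraries given E2 had 8.88 ± 3.79 peaks per 10000 in the window and those not given E2 had 12.1 ± 3.75 (n = 6 each, exact permutation p = 0.158, adjusted 0.644). A raw p below 0.05 was reached by 11% of genes in this comparison. Without E2 replicate 1 and F replicate 2 the means were 10.2 ± 2.05 and 13.5 ± 1.66 (n = 5 each, exact permutation p = 0.0238, adjusted 0.344). That raw p was then below 0.05 at 12.3% of genes, and no gene had an adjusted p below 0.05. List length enters this share, and its part in the result was not tested. Whether the effect of E2 differed with and without fulvestrant was tested directly, and the difference of differences had an exact permutation p of 0.134 for the share and 0.604 for the count.

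**Figure D3:**
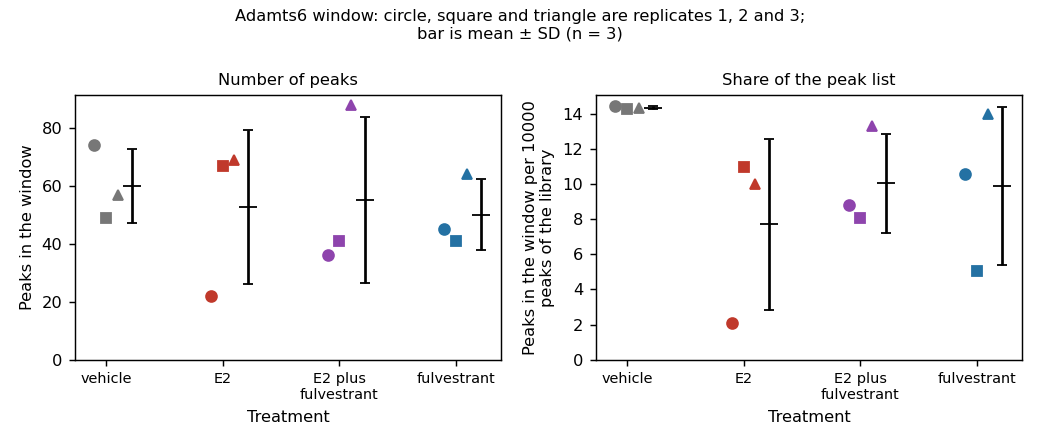
Points give the number of peaks in the window (left) and the peaks per 10000 of the library's list (right) for each replicate of the 4 treatments, with the mean and SD (n = 3) as a bar. Vehicle shares sit together between 14.3 and 14.4, above every treated library, while counts overlap.

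The start site was among the strongest regions in every library. Its rank percentile (0 for the strongest peak of a list, 100 where there is none) was 0.464, 0.882 and 0.409 in vehicle, 0.667, 0.751 and 0.784 in E2, 2.75, 2.42 and 1.70 in E2 plus F, and 0.403, 3.71 and 0.687 in F. All 3 E2 plus F libraries ranked it lower than any vehicle or E2 library did. At 48 sites of the window in at least 3 libraries, this was the 1 site weaker in all E2 plus F than in all vehicle libraries (2.16% of all such regions).

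The summit of the start site was 74 to 91 fragments high in vehicle, 100 to 130 in E2, 65 to 71 in E2 plus F and 68 to 107 in F. Heights at a merged site are those of its strongest summit in each library, which need not be the same bases. Divided by the lowest local background of each library, which scales for depth, it was 24.9, 19.97 and 23.2 times background in vehicle, 70.9, 34.9 and 34.3 in E2, 18.8, 20.98 and 22.04 in E2 plus F, and 28.2, 23.7 and 22.7 in F. All 3 E2 libraries stood above the other 9, and E2 replicate 1, the shallow library, stood highest. The E2 mean was 2.06 times vehicle and 2.27 times E2 plus F, each with an exact permutation p of 0.1, the smallest possible with n = 3. Without E2 replicate 1 the ratios were 1.52 and 1.68. The summits of E2 replicate 1 and F replicate 2 lay at -0.043 and -0.012 kb, before those of the other 10 libraries (0.161 to 0.516 kb).

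Recurrent regions elsewhere in the genome showed a shift in the same direction on this scale. Over 7759 regions present in all 12 libraries, the median E2 to vehicle ratio was 2.09, or 1.42 without E2 replicate 1, and the median E2 to E2 plus F ratio was 1.90, or 1.30. The 8 recurrent sites of the window had medians of 1.68 (1.59 without E2 replicate 1) and 1.49 (1.42). For E2 plus F against vehicle the median was 1.19 at these sites and 1.08 over all such regions. The 8 sites thus lay on the same side as the median of the recurrent regions, and the difference between them was not tested.

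The 212-kb site, just past the end of the gene, was high in both E2-treated groups except in E2 replicate 1. It was 15.6, 10.8 and 9.71 times background in vehicle, 6.38, 27.3 and 26.4 in E2, 18.8, 27.6 and 26.4 in E2 plus F, and 12.9, 10.8 and 13.7 in F. Of the 6 libraries given E2, 5 exceeded all 6 libraries not given E2, with fulvestrant present or not. The share of all regions with that pattern was not computed. The means were 22.1 and 12.3 (n = 6 each, exact permutation p = 0.0281, adjusted p no lower than 0.431 at any region). A raw p below 0.05 was reached by 7.71% of regions. Without both libraries that stood apart the ratio went from 1.81 to 2.01. The exact permutation p was then 0.00794, the smallest possible with n = 5 each. How many regions reach that p was not computed. The summit of E2 replicate 1 lay at 212.714 kb, past those of the other 11 libraries (210.961 to 211.904 kb). Those of vehicle replicate 2 (211.301 kb) and F replicates 2 and 3 (210.961 and 211.034 kb) also lay apart from those of the other 5 libraries given E2 (211.798 to 211.904 kb). The heights thus do not all come from the same bases.

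The 291-kb site was highest, on average, in E2 plus F. Its height was 6.29, 3.24 and none in vehicle, 8.51, 7.60 and 4.74 in E2, 9.53, 15.0 and 13.4 in E2 plus F, and 6.07, 10.4 and 4.49 in F. All 3 E2 plus F libraries lay above all E2 libraries and all vehicle libraries. The summits compared were not the same, since those of E2 lay at 290.000 to 290.239 kb, those of F at 289.986 to 290.140 kb, and those of E2 plus F at 290.600 to 290.622 kb. It was the only one of 48 sites higher in E2 plus F than in E2 by this rule (0.926% of all regions), with an exact permutation p of 0.1, the smallest possible with n = 3.

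**Figure D4:**
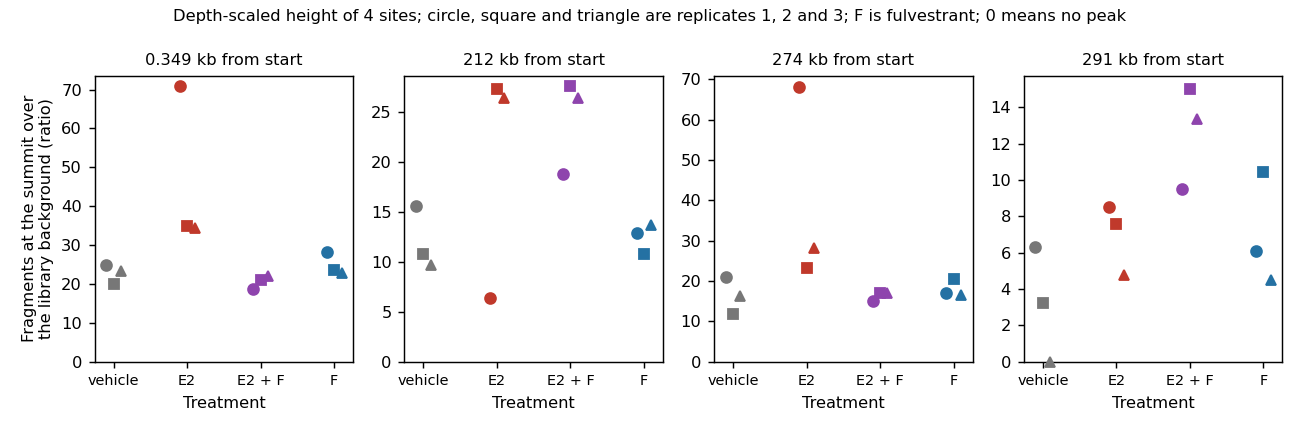
Each panel gives the summit fragments over the library background (a ratio, vertical axis, from 0) at a site named by its distance from the start, for 3 replicates of each treatment. E2 lies above the other groups at the start site (34.3 to 70.9) and at 274 kb (23.4 to 68.1), both E2-treated groups are high at 212 kb except E2 replicate 1, and E2 plus F is highest at 291 kb apart from F replicate 2.

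At 274 kb the libraries that stood apart placed their summits elsewhere. At 274 kb the height was 21.1, 11.9 and 16.2 times background in vehicle, 68.1, 23.4 and 28.2 in E2, 15.0, 17.1 and 17.1 in E2 plus F, and 17.1, 20.5 and 16.6 in F. E2 replicate 1 and F replicate 2 had summits at 274.271 and 274.269 kb, in sequence that was 100% repeat-masked. The other 10 summits lay between 272.346 and 273.492 kb, in sequence 10.4% to 38.8% masked. At 285 kb they also lay apart, at 285.588 and 285.536 kb, where the other 10 lay between 283.534 and 284.988 kb. At 254 kb they had summits at 253.828 and 253.825 kb, 62.2% masked, near those of vehicle replicates 1 and 2 and F replicate 3 (253.608 to 253.741 kb) and not those of E2 replicates 2 and 3 (253.143 and 253.160 kb). At 230 kb vehicle replicates 1 and 3 had summits at 228.437 and 228.614 kb, apart from the other 10.

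The 254-kb site also held a summit whose position followed E2 treatment in most libraries. Summits of E2 replicates 2 and 3 and of all 3 E2 plus F libraries fell within 17 bp of each other, from 253.143 to 253.160 kb, and no vehicle or F library had one there. This was 1 of 85 linked summits of the window found in at least 3 libraries, and 0.624% of 65017 such summits in the genome had at least 5 of 6 E2-treated libraries and no other. The reverse pattern also occurred once, at 205.208 to 205.318 kb in 2 vehicle and 3 F libraries (0.142% of the genome's). Both were picked after their values were seen, and so were the summits at 289.986 to 290.239 kb, within the 291-kb site, found in all 3 E2 and all 3 F libraries and in no other (of the genome's, 1.09% were in all E2 and no vehicle, 0.746% in all E2 and no E2 plus F, and 0.709% in all F and no vehicle library).

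A second summit of the 254-kb site, 253.608 to 253.828 kb, was in all 3 vehicle libraries and no E2 plus F library (0.572% of the genome's). It was also in E2 replicate 1 and in F replicates 2 and 3, so vehicle and E2 plus F libraries had summits at separate positions within this site. The summit at 253.143 to 253.160 kb was in turn the only one of the 85 in all E2 plus F and no vehicle library (2.62%). Another 3 were in all E2 plus F and no E2 library (1.16%), at 232.382 to 232.961, 300.612 to 300.792 and 302.258 to 302.368 kb. The 1 summit in all vehicle and no F library lay in the gene body at 110.763 to 111.482 kb (0.644%).

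The 4 summits found in all vehicle and no E2 library lay at -1.657 to -1.426, 228.389 to 228.614, 255.564 to 256.454 and 299.265 to 299.578 kb. They were 4.71% of the 85, against 1.21% of the genome's. The one at 228.389 to 228.614 kb covers the position of the downstream ERE. It was in E2 plus F replicate 2 and F replicates 2 and 3 as well, so its absence from E2 was shared by 3 other libraries. Each peak carries 1 summit, so a summit can be missing where a broad peak covers the same bases. Peaks of E2 replicates 2 and 3 did cover this element. At the start site they had 1 peak each, of 6492 and 6456 bp, where vehicle libraries had 2 or 3. These patterns thus concern summit calls, and loss of binding was not tested.

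**Figure D5:**
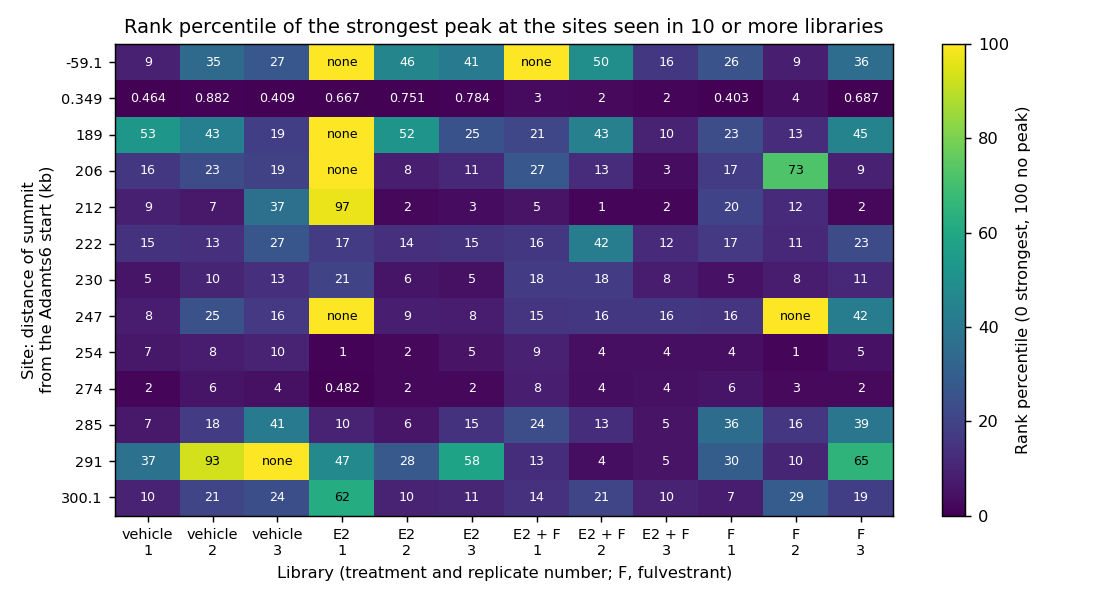
The colour and the printed value give the rank percentile (0 strongest, 100 no peak) of the strongest peak at each site seen in at least 10 libraries (vertical axis, kb from the start) in each library (horizontal axis). The start site is dark throughout, at 0.403 to 3.71, and E2 replicate 1 has no peak at 4 sites.

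Over all sites, the treatments were not separated. None of the 157 sites was present in all 3 libraries of a treatment and absent from all 3 of another in any of the 4 comparisons, in either direction, where such regions made up 0.344% of all regions for E2 over vehicle and 0.0162% for vehicle over E2. The shares of such regions were 0.207% for E2 over E2 plus F, 0.0732% for E2 plus F over E2, 0.569% for E2 plus F over vehicle, 0.0434% for vehicle over E2 plus F, 0.144% for F over vehicle and 0.0924% for vehicle over F.

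The count of 0 for E2 rested on E2 replicate 1. Without it, 2 sites (3.25% of all regions) were in both other E2 libraries and no vehicle library, and 6 sites (1.51%) were in both and in no E2 plus F library. With 2 of 3 libraries required in place of 3, the sites numbered 2 for E2 over vehicle (3.97% of all regions), 1 for vehicle over E2 (0.275%), 6 for E2 over E2 plus F (2.13%) and 0 for E2 plus F over E2 (0.735%). They numbered 1 for E2 plus F over vehicle (2.52%), 2 for vehicle over E2 plus F (0.476%), 2 for F over vehicle (1.33%) and 4 for vehicle over F (0.799%). The 6 sites were 3.82% of the 157, and whether they exceed the genome's share was not tested. The Fisher exact test of presence, 6 libraries given E2 against 6 not, had no raw p below 0.182 in the window (0.162% of all regions were below 0.05).

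Of 48 sites in at least 3 libraries, 1 had a raw exact permutation p below 0.05 for rank percentile, against 5.23% of 49642 regions, and none passed adjustment. With 6 libraries against 6, at least 2150 regions would have to reach the smallest possible p before any adjusted p fell below 0.05, so a few changed regions could not be called. The 1 site was the Ppwd1 and Cenpk promoter (chr13:104228144-104229183), at 9.15, 34.6 and 27.1 in vehicle, none, 45.7 and 40.7 in E2, none, 49.5 and 16.2 in E2 plus F, and 25.6, 8.57 and 35.6 in F. It ranked lower given E2, 58.7 against 23.5 on average (exact permutation p = 0.0281, n = 6 each, adjusted 0.621), and p was 0.103 without both libraries that stood apart.

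With all libraries included, fewer sites of the window than of all regions were stronger given E2. E2 replicate 1 held 22 peaks in the window, against 67 and 69 in E2 replicates 2 and 3. A library without a peak at a site entered there with the weakest rank and no height. The counts of sites below were not computed without the libraries that stood apart, so the part of E2 replicate 1 in them was not tested. Rank percentile was stronger given E2 at 22 of 48 sites, against 68.0% of all regions, and the median difference was 0.95 percentile points (weaker given E2), against -6.19 over all regions (stronger). On the depth-scaled height, 32 of 48 were higher given E2, against 85.2% of all regions, and 2 had a raw exact permutation p below 0.05, at 212 and 285 kb, against 7.71% of regions. The height of all E2 libraries exceeded that of all vehicle libraries at 5 of 48 sites (15.7% of all regions), namely the start, 222, 230, 254 and 274 kb, and the same 5 exceeded all E2 plus F libraries (11.7%). No site was lower in all E2 (0.149%) or in all E2 plus F libraries (0.595%) than in all vehicle libraries, while E2 plus F exceeded vehicle at 212 and 291 kb (11.8%). F exceeded vehicle at 254 kb (5.5%) and lay below it at 1 site, in intron 13 at 111 kb (1.24%). On rank only the 254-kb site did so against vehicle (5.87%), and only the start and 274-kb sites against E2 plus F (5.68%). In the other direction E2 ranked below vehicle at the Ppwd1 and Cenpk promoter alone (0.614%) and below E2 plus F at 291 kb alone (1.56%). E2 plus F ranked above vehicle at 212 and 291 kb (9.02%), and F ranked above vehicle at 254 kb (4.15%).

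Among the 18 other ADAMTS genes, none had as dense a window. Their median was 49.5 peaks per 100 kb (6.23 to 131). Adamts4, an aggrecanase, was the densest, and Adamts10, the closest relative, held 159 peaks in all. The share of the list differed by raw exact permutation p below 0.05 between libraries given and not given E2 at 4 of 18 (11% of all genes), of which Adamts9 and Adamts20 were higher and Adamts4 and Adamts7 lower, and none passed adjustment. All E2 counts exceeded all vehicle counts at 9 of 18, against the 23.2% of all genes.

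Among 12 genes of the microfibril and of latent TGF-β storage, the median was 82.5 peaks per 100 kb. Ltbp3, which encodes a latent TGF-β binding protein, at 252, and Fbn1, which encodes fibrillin-1, at 171, were denser than Adamts6. Fbn1 held 698 peaks. Two-sided exact tests of the share gave 2 raw p below 0.05 (11% of all genes), at Ltbp4 and Mfap5, both lower given E2, and none after adjustment. All E2 counts exceeded all vehicle counts at 4 of 12, against 23.2% of all genes.

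The genes whose share of the list varied most like that of Adamts6 over the 12 libraries were Ipp (Pearson r = 0.967), Tmem69 (0.961), Il33 (0.957), March5 (0.951) and Zfp521 (0.944). Ipp and Tmem69 are neighbours on chromosome 4 whose windows overlap (140 and 139 peaks), so they share peaks and are not separate matches. Of 19690 genes with at least 12 peaks, 31 had r above 0.9 and the median was 0.0813. All genes share the same library totals and depth, and the correlations are descriptions.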

How the data were processed

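ESR1 ChIP-seq peak lists of 12 libraries (4 treatments, 3 replicates each) were used, and the input library was not analysed here. Per the labels and the study's methods, reads were trimmed with Trimmomatic 0.39, aligned to mm10 with Bowtie2, stripped of duplicates with Picard 2.21.4 and passed to MACS2, which called peaks per library. The deposited lists give, per peak, a position, a summit, an integer score, the fold enrichment at the summit (a ratio), and the −log10 p-value and −log10 q-value that the authors' caller wrote. The lists went down to a −log10 p of 2.00 to 2.04, and 5.64% to 26.1% of peaks had a q-value above 0.05, so many weak peaks are among those counted.

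Peaks were assigned to the Adamts6 window (gene body and 100 kb on each side, GENCODE release M21) by summit. Overlapping peaks (at least 1 bp) of any libraries were merged into sites. Rank percentiles were taken on the p-value within a library. Summit fragments were solved from the fold and the p-value, and were divided by the smallest local background of the library to give heights. The relative depth of a library also divided that background by its shortest peak length. Heights carry counting error, and also the error of the background they are divided by and of the choice of the strongest summit. Groups were compared by two-sided exact permutation tests over libraries and by Fisher's exact test for presence, with Benjamini-Hochberg adjustment over all genes or all regions. Python 3.11.15, numpy 2.4.6, pandas 2.3.3 and scipy 1.17.1 were used, and the permutation test and the solved fragment counts were tested on simulated data. Regions entered rank tests when in at least 3 libraries.

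The gene, its rule and the gene lists were chosen with earlier results of these data known. Named sites were those in all 12 libraries, the 10 best by median rank percentile, the site nearest to the start, sites that separated treatments and sites in at least 6 libraries with an ERE at the summit. Named genes were those that start in the window, the ADAMTS and microfibril lists and the 5 most alike in share. Other sites, such as those at 291 kb, 73.1 kb, 149.8 kb and the Ppwd1 and Cenpk promoter, were chosen after their values were seen. Alternatives were other peak thresholds, other window sizes, other definitions of a shared site, each replicate left out, and a replicate block. The labels name no batch, although the study's methods removed batch effects with limma before its own comparison, so batches could not be entered here.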

Additional observations from a re-analysis of the deposited data

Results flagged for a closer look

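The count and the share of peaks in the window and the rank percentiles of the 8 sites in all 12 libraries were checked for a single library far from the rest of its 6, given or not given E2, by Dixon's gap over range (critical value 0.625). Of 20 groups checked, 4 held such a library, where chance gives about 1 in 20. At the start site, F replicate 2 had a percentile of 3.71, the weakest of the libraries not given E2 (gap over range 0.855). At 212 kb, E2 replicate 1 had 96.9, close to no peak, among the libraries given E2 (0.959). At 300.1 kb the same library had 62.0 (0.792). At 222 kb, E2 plus F replicate 2 had 42.1 (0.821). Both libraries that stood apart in depth and repeat content account for 3 of the 4, and the part of depth and repeats in these values was not tested.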

How the results depend on the processing

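No test of a difference between treatments in the count of peaks passed, and its direction was not stable. Counting only peaks with a −log10 q of at least 10, E2 exceeded vehicle by 2.67 peaks, E2 exceeded E2 plus F by 1.33, E2 plus F exceeded vehicle by 1.33, F exceeded vehicle by 2 and libraries given E2 exceeded those not given E2 by 1. With a q-value of at most 0.05 the differences were 0.333 for E2 plus F against vehicle and 1.83 for E2 given against not given. In the gene body alone they were 2 and 5, and with 10 kb on each side 1.33 and 4.33. Without E2 replicate 1 and F replicate 2, an alternative chosen after seeing the data, E2 exceeded vehicle by 8 and E2 plus F by 13, libraries given E2 exceeded the others by 2.40, and the share in E2 exceeded that in E2 plus F by 0.454 per 10000. The cause of these reversals was not tested.

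Leaving out each replicate moved the difference in counts between -15.5 and 8 (without E2 replicate 1) for E2 against vehicle, -11.8 and 14.2 (without E2 plus F replicate 3, and 13 without E2 replicate 1) for E2 against E2 plus F, -21.5 (without E2 plus F replicate 3) and 4.50 for E2 plus F against vehicle, -17 and -3 for F against vehicle, and -8 and 5.20 for E2 given against not given. The share stayed below vehicle, between -8.30 and -3.85 (without E2 replicate 1) for E2, -5.93 and -3.31 for E2 plus F and -6.53 and -2.07 (without F replicate 2) for F, and between -4.65 (without F replicate 2, exact permutation p = 0.0173) and -1.89 (without E2 replicate 1) for E2 given against not given. For E2 against E2 plus F it ran from -3.99 to 0.454, the latter without E2 replicate 1.

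Sites present in one treatment and absent from another numbered 0 with all 3 libraries required. With 2 of 3 required they numbered 2 for E2 over vehicle (3.97% of all regions), 1 for vehicle over E2 (0.275%) and 6 for E2 over E2 plus F (2.13%). They numbered 1 for E2 plus F over vehicle (2.52%), 2 for vehicle over E2 plus F (0.476%), 2 for F over vehicle (1.33%) and 4 for vehicle over F (0.799%). Requiring a summit within 250 bp gave 1 for vehicle over E2 plus F. Leaving out a replicate gave 0 to 2, 0 to 2, 0 to 6, 0 to 1, 0 to 2, 0 to 2 and 0 to 3 in the same order, and 0 to 0 for E2 plus F over E2. The highest came without E2 replicate 1, E2 replicate 3, E2 replicate 1, E2 plus F replicate 1, vehicle replicate 2, F replicate 3 and vehicle replicate 2.

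The replicate numbers did not meet the criterion for pairs, a correlation above 0.1 in every same-numbered pair. Deviations of same-numbered libraries correlated between -0.570 and 0.437 across genes, and 5 of 18 were above 0.1, against 5 of 36 between different numbers. All 6 pairs numbered 3 were above 0, and 4 of them above 0.1. A replicate block cannot move a mean difference in this balanced design (-7.33 peaks for E2 against vehicle), and its exact sign-flip p cannot go below 0.25 with 3 pairs or 0.0312 with 6. It was 1, 1, 0.75, 0.5 and 1 for the counts of the 5 comparisons in the order given above, and 0.25, 0.5, 0.25, 0.25 and 0.156 for the share.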

Other observations

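Intronic sites at 74.6 and 122 kb had peaks in E2 replicates 2 and 3 and in no other library, with best rank percentiles of 88.2 and 50.5 and fold enrichments of 2.64 and 3.505. Both are weak peaks of the kind that filled the gene body, and E2 replicate 1, the shallow library, held neither. An intergenic site at 245.7 kb had a stronger peak, at a best percentile of 15.0, in both of these E2 libraries, in vehicle replicate 1 and in F replicate 1, and in no E2 plus F library. An exonic site at 110 kb was in vehicle replicates 1 and 3, E2 replicate 3 and E2 plus F replicate 3, and in no F library. These sites were picked after their values were seen and were not tested.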
